A study of Mus musculus with 29 samples.

Results

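The genes described here are the mouse host transcript of the microRNA miR-155 (Mir155hg) and 7 protein-coding candidate targets, Tspan14, Socs1, Inpp5d, Bach1, Jarid2, Cebpb and Tab2. They are 8 of the 54532 genes in the deposited count table. All 8 were taken by symbol. Mir155hg was taken because it encodes the microRNA, 6 of the others because they are reported miR-155 targets, and Tspan14 because it was lower in the knock-in cords of this series. The genes were thus chosen by a rule that used their read counts in knock-in cords against those in the other genotypes, and for all 8 these differences are given as a description with no test. All 8 passed the filter on low counts at 4 h, and at 1 h all but Mir155hg did. At 4 h Mir155hg passed only through the knock-in cords. It had 11 to 44 reads in each of them and 1 to 6 in each cord of the other genotypes.

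RNA came from mouse spinal cord after aortic cross clamping (ACC), an operation that stops blood flow to the lower cord for a time, or after a Sham operation. Thoracolumbar cord was taken at 4 h from mice with miR-155 knocked in to motor neurons (miR155KI; 5 ACC and 4 Sham mice), from mice with a global knockout of miR-128 (miR128KO; 3 ACC and 4 Sham mice) and from wild-type mice (WT; 3 ACC and 3 Sham mice). At 1 h, thoracolumbar and cervical cord came from the same 3 clamped WT mice, and the cervical cord served as tissue spared by the clamp. All mice were on a C57BL6 background, of both sexes, and littermates were split at random between ACC and Sham. Ages, the promoter that directs the knock-in to motor neurons and the locus of its insertion are not given in the sources used here. One more miR128KO ACC library (1) was left out, as in the study, because its authors saw no change in it against Sham.

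miR-155 is a short RNA cut from a hairpin in the exon of a noncoding host transcript. The processed strand, carried by an Argonaute protein, pairs through its seed with sites in the 3′ untranslated region (3′ UTR) of messenger RNAs, which are then translated less and degraded faster. The host gene is induced in activated macrophages, microglia and lymphocytes, and among its best known targets are brakes on inflammatory signalling. In the spinal cord the microRNA is studied for its part in inflammation and motor neuron injury.

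The mature 5p strand and the hairpin, on chromosome 16 of mouse GRCm38 (RefSeq), are shown because the seed defines every site discussed here. In the mature strand the capitals mark the seed, bases 2 to 8. In the hairpin, at chr16:84714140-84714204 on the plus strand, they mark the 5p strand and then the 3p strand.
mmu-miR-155-5p: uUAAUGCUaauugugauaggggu
Mir155 hairpin: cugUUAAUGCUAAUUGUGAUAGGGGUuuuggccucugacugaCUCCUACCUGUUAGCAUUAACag

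No other mature mouse miRNA in the RefSeq table used here had this seed. Matches to it were sought on the sense strand of the longest annotated 3′ UTR of each gene (GENCODE M21, GRCm38). An 8mer match is AGCATTAA. A 7mer match is AGCATTA without the last A, or GCATTAA without the first A. All 7 protein-coding genes held at least 1 8mer match, against 3.28% of the other 15585 tested genes with a 3′ UTR. That share is a description, since reported targets are often known through such sites. Tspan14 and Jarid2 each held a pair of 8mer matches, and Bach1 held 1 8mer and 1 7mer match. The matches are printed with up to 11 bases before and 8 after them, as DNA of the transcribed strand with the match in capitals.
Tspan14 site at chr14:40907405-40907412 (minus strand): cgtttctccatAGCATTAAgccctact
Tspan14 site at chr14:40906447-40906454 (minus strand): taaaacaaaaaAGCATTAAgc
Bach1 site at chr16:87732188-87732195 (plus strand): atgaacagtttAGCATTAAgggttaat
Bach1 site at chr16:87732400-87732406 (plus strand): atatattgcatAGCATTAtacatgta
Cebpb site at chr2:167690366-167690373 (plus strand): tttccgtttcgAGCATTAAagtgaaga
Socs1 site at chr16:10784206-10784213 (minus strand): cgctgtgccgcAGCATTAAgtgggggc
Inpp5d site at chr1:87719838-87719845 (plus strand): tgtttttaaaaAGCATTAAagaaaacc
Tab2 site at chr10:7906691-7906698 (minus strand): ataaggtagaaAGCATTAAtgaaatga
Jarid2 site at chr13:44920093-44920100 (plus strand): gattttgttttAGCATTAAactgttca
Jarid2 site at chr13:44920866-44920873 (plus strand): tccctcacatcAGCATTAAtctttgtt

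The second Tspan14 match begins at base 1604 of a 3′ UTR of 1613 bases, at the very end of the annotated transcript, and the Socs1 match begins at base 20 of 1993. A match is a description of the sequence, and binding was not measured in these data.

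The libraries held 15596512 to 33056693 counted reads over all 29, and 17260022 to 32041554 over the 22 used at 4 h. Levels are CPM, reads of a gene scaled to a common library total, and log2 fold changes come from edgeR's quasi-likelihood fit of the 22 libraries, in which 19581 genes were tested. An SE belongs to a log2 fold change and an SD to CPM across mice. A gene was called at an adjusted p under 0.05. In these poly-A libraries the short mature microRNA is not measured, and the Mir155 hairpin gene had 0 reads in every library. Mir155 lies within Mir155hg on the same strand, so reads shared by both may not be separable. That 0 is thus no measure of the hairpin's transcription. Motor neuron markers were detected in every 4 h group, with a summed level between 239.7 CPM in a miR155KI Sham cord and 402.7 CPM in a miR128KO ACC cord.

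Averaged over the 22 libraries and divided by gene length, Cebpb was the most abundant of the 8 genes at 15.6 CPM per kb, followed by Tspan14 at 13.2, Tab2 at 10.5, Bach1 at 5.16 and Jarid2 at 2.95 CPM per kb. Inpp5d had 1.78, Socs1 0.423 and Mir155hg 0.361 CPM per kb. In reads, Socs1 had 13 to 56 in each of the 22 libraries and Mir155hg 1 to 44, where 3 reads correspond to 0.0934 to 0.176 CPM.

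Mir155hg, the noncoding RNA that carries the hairpin, was higher in every miR155KI cord than in any other cord at 4 h. It had 0.687, 1.40, 1.57, 1.47 and 1.32 CPM in the miR155KI ACC cords and 0.370, 1.37, 0.860 and 0.491 CPM in the miR155KI Sham cords. The miR128KO cords had 0.154, 0.143 and 0.113 CPM after ACC and 0.0385, 0.0361, 0.153 and 0.217 CPM after Sham. The WT cords had 0.175, 0.219 and 0.110 CPM after ACC and 0.0467, 0.289 and 0.162 CPM after Sham. The lowest miR155KI cord, a Sham cord, thus stood above the highest WT cord, also Sham, and most cords of the other genotypes were at or near the level of 3 reads. Since the insertion site is not given, reads of the endogenous host gene and any read from the inserted allele cannot be told apart, and every Mir155hg difference of miR155KI below is one of their sum.

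In reads, Mir155hg had 251 in the 9 miR155KI libraries, 11 to 44 in each, against 40 in the 13 libraries of miR128KO and WT, 1 to 6 in each. The log2 fold change of miR155KI over WT was 2.91 (SE 0.571) after ACC and 2.20 (SE 0.569) after Sham. Over miR128KO it was 3.21 (SE 0.560) after ACC and 2.82 (SE 0.543) after Sham. Both comparisons after Sham lean on few reads and on single cords of either genotype. The value against WT was 1.76 without miR155KI Sham 2, 1.78 without WT Sham 1 and 2.80 without WT Sham 2. That against miR128KO was 2.38 without miR155KI Sham 2 and 3.39 without miR128KO Sham 4. The spread among the miR155KI Sham cords was wide, with a mean of 0.773 ± 0.449 CPM (SD, n = 4), against 1.29 ± 0.348 CPM (SD, n = 5) in miR155KI ACC cords.

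Mir155hg was the single gene of the 19581 tested whose CPM was higher in all 9 miR155KI libraries than in all 13 others, which is 0.00511% of them. Only 5 genes, 0.0255%, were lower in all 9, Tspan14, Cd151, Myoc, Bgn and Gt(ROSA)26Sor. Mir155hg was also among the 19581 only through the miR155KI libraries. Since the knock-in difference was used to choose these genes, nothing is read from either count.

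Tspan14 encodes a tetraspanin of the TspanC8 group, membrane proteins that take the protease ADAM10 out of the endoplasmic reticulum and direct what it cuts. It had 28.1, 22.4, 23.9, 28.1 and 32.4 CPM in miR155KI ACC cords and 26.2, 28.0, 26.8 and 24.6 CPM in miR155KI Sham cords. The miR128KO cords had 43.3, 42.9 and 43.7 CPM after ACC and 38.7, 43.4, 41.1 and 39.2 CPM after Sham. The WT cords had 43.5, 36.8 and 47.6 CPM after ACC and 35.7, 38.4 and 36.4 CPM after Sham. The highest miR155KI cord was below the lowest WT cord, and the miR128KO and WT cords overlapped each other.

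**Figure D1:**
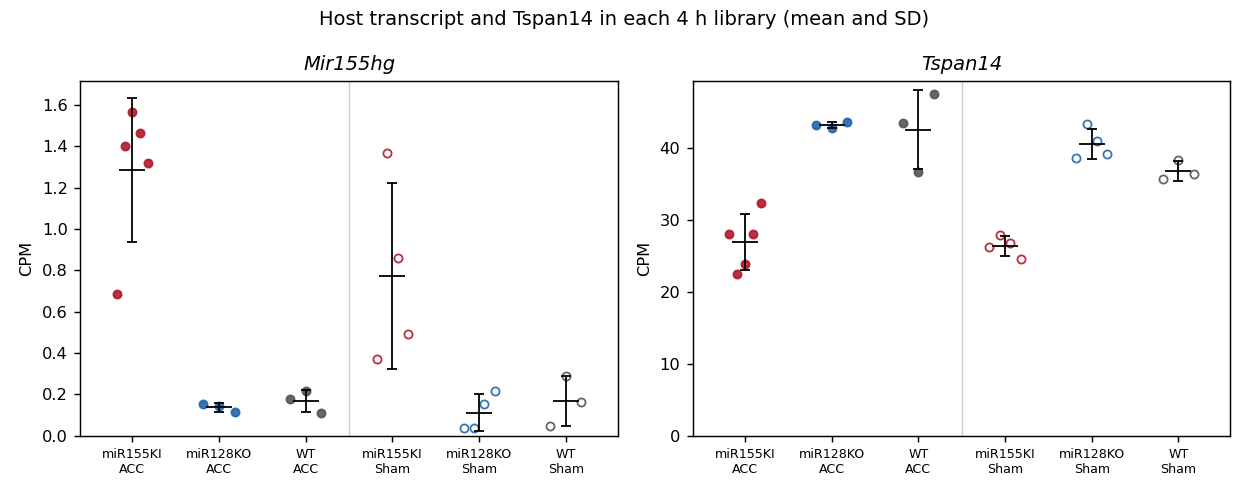
CPM of Mir155hg (left) and Tspan14 (right) in each 4 h library, by genotype and operation, with ACC groups left of Sham groups. Each point is 1 mouse (filled for ACC, open for Sham), and bars give the mean and SD. All 9 miR155KI points lie above the other 13 for Mir155hg and below the other 13 for Tspan14.

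Over the 9 miR155KI cords Tspan14 averaged 26.7 ± 2.94 CPM, against 40.8 ± 3.57 CPM in the 13 others (SD). The log2 fold change of miR155KI over WT was -0.66 (SE 0.0942) after ACC and -0.48 (SE 0.0988) after Sham, and over miR128KO it was -0.68 (SE 0.0933) after ACC and -0.62 (SE 0.0918) after Sham. Under all alternatives these 4 values lay between -0.76 and -0.45. Fewer cells of a type and less RNA per cell cannot be told apart in such bulk samples. None of the 146 tested genes within 10 Mb of Tspan14 was called by edgeR in any of the 4 comparisons of miR155KI. Of all tested genes, 0.0204% were called over WT after ACC, 0% over WT after Sham, 0.194% over miR128KO after ACC and 0.148% over miR128KO after Sham. Over WT after Sham, where edgeR called 0 genes, 916 had an unadjusted p under 0.05 and DESeq2 called 11. Within the 9 miR155KI cords, which mix both operations and hold 11 to 44 reads of Mir155hg each, a relation of Tspan14 to Mir155hg was not shown and cannot be settled (Pearson's r 0.0683, exact permutation p = 0.872, adjusted 0.872; Spearman's rho -0.0667, exact p = 0.880, adjusted 0.880; r -0.231 without the 2 cords farthest from the median). The p-values are two-sided and adjusted over the 3 relations computed, and 5 ACC and 4 Sham cords are too few for a value within each operation.

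The other TspanC8 genes and ADAM proteases were examined beside it. Of Tspan5, Tspan10, Tspan15, Tspan17, Tspan33, Adam10 and Adam17, 6 passed the filter and none was called between miR155KI and the other genotypes, where 0.444% of all tested genes were called in the mean of ACC and Sham. Their median log2 fold change was -0.04, against 0.00 over all genes, and 4 of the 6 were below 0. By comparison, 5 of 6 were below 0 over WT after Sham and over miR128KO in both operations, and 1 of 6 over WT after ACC. No call among 6 genes is near that background share, and a p that misses the threshold does not show that a gene was the same in both.

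The 5 genes most like Tspan14 over the 22 libraries, by Pearson's r of log2 CPM, were Cd151, another tetraspanin (0.883), Myoc, the secreted glycoprotein myocilin (0.882), Ctso, a cysteine protease (0.836), Mylk, myosin light chain kinase (0.827), and Bgn, the matrix proteoglycan biglycan (0.827). For Tspan14, Cd151, Myoc and Bgn the libraries fall into 2 sets by genotype that do not overlap, and each r spans both sets. Cd151 averaged 42.0 ± 3.46 CPM in miR155KI cords and 51.2 ± 2.71 CPM in the others, and Myoc 18.2 ± 6.94 CPM in miR155KI cords and 77.7 ± 23.4 CPM in the others (SD, n = 9 and 13). Cd151 held 1 8mer match and Ctso 2 7mer matches, whereas none was found in the annotated 3′ UTR of Myoc, Mylk or Bgn. Myoc and Bgn are well expressed by fibroblasts of the meninges and vessel walls. Of 10 markers of such fibroblasts, a list added after the data were seen, 9 had a negative log2 fold change in miR155KI, with a median of -0.41 and none called, where 48.6% of all tested genes were negative and 0.444% called. The median was -0.88 over WT and -0.32 over miR128KO after ACC, and -0.48 over WT after Sham. Over miR128KO after Sham, where Tspan14 was at -0.62, it was 0.11, with 4 of 10 below 0. In miR128KO over WT, 9 of 10 were below 0, with a median of -0.58. Their summed level was 51.0 to 92.3 CPM in miR155KI ACC, 57.0 to 94.2 CPM in miR128KO ACC and 70.3 to 122.7 CPM in WT ACC. In Sham cords it was 59.4 to 171.4 CPM for miR155KI, 62.8 to 237.1 CPM for miR128KO and 72.3 to 232.9 CPM for WT. None of the 10 was at 0 in all libraries. Of 8 smooth muscle and pericyte markers, the other list added after the data were seen, 4 were below 0 in miR155KI over the other genotypes. Their median was -0.01, and none was called. Of 8 astrocyte markers, given below with S1pr1, 6 were below 0 there (median -0.08). Of these, 2 were called lower, where 0.332% of all tested genes were. Over WT after ACC, 4 of the 8 were below 0. The part of any of these lists in the level of Tspan14 was not tested.

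The 5 genes most like Mir155hg were Ide, an insulin-degrading protease (r 0.777), Zfp488, a zinc finger factor of oligodendrocytes (0.746), Btaf1 (0.745), Xkr6 (0.736) and Il18bp, a decoy that binds interleukin-18 (0.735). The libraries fall into 2 sets by genotype that do not overlap for Mir155hg, and each r spans both sets. Ide averaged 106.8 ± 5.79 CPM in miR155KI cords and 59.2 ± 14.4 CPM in the others (SD, n = 9 and 13).

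Gt(ROSA)26Sor, the noncoding transcript of the locus that many mouse knock-in alleles use, was examined because the insertion site of the miR-155 allele is not stated. It had 7.83, 2.06, 5.67, 7.52 and 7.74 CPM in miR155KI ACC cords and 7.94, 2.83, 10.6 and 7.10 CPM in miR155KI Sham cords, against 12.2 to 15.9 CPM in the 13 others. Every miR155KI cord was below every other cord, and the mean was 6.59 ± 2.68 CPM in miR155KI and 13.96 ± 1.18 CPM in the others (SD, n = 9 and 13). In the mean of ACC and Sham, the log2 fold change over the other genotypes was -1.08 (SE 0.205; edgeR adjusted p = 0.0222), lower in 9 of 9 cords. The call was lost when miR155KI Sham 4 (adjusted p = 0.0686), miR155KI ACC 3 (0.0542), miR128KO ACC 3 (0.0547), WT ACC 3 (0.0542) or WT Sham 2 (0.0509) was left out. In the 4 separate comparisons Gt(ROSA)26Sor did not pass, where at most 0.194% of all tested genes were called. The edgeR adjusted p was 0.790 over WT and 0.2055 over miR128KO after ACC, and 0.999 and 0.376 after Sham. The adjacent Setd5, named after its value was seen, was higher in miR155KI by 0.22 (SE 0.0483; adjusted p = 0.0387). Thumpd3, which overlaps Gt(ROSA)26Sor on the opposite strand, had -0.10 (SE 0.0474; adjusted p = 0.507). The strand setting of the counting is not given in the sources used here, so reads of overlapping partners may not be separable. The cords with the lowest Gt(ROSA)26Sor, miR155KI ACC 2 and Sham 2, had 1.40 and 1.37 CPM of Mir155hg. Those with the most Mir155hg, miR155KI ACC 3 and ACC 4 at 1.57 and 1.47 CPM, had 5.67 and 7.52 CPM of Gt(ROSA)26Sor. Within the 9 miR155KI cords the relation did not pass a test (Pearson's r -0.464, exact permutation p = 0.191, adjusted 0.573; Spearman's rho -0.600, exact p = 0.0968, adjusted 0.290; r -0.492 without the 2 farthest cords).

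The 6 remaining candidates differed less between genotypes than Tspan14. Bach1, a repressor of heme oxygenase and other antioxidant genes, had log2 fold changes of -0.05 (SE 0.0844) and -0.25 (SE 0.0829) for miR155KI over WT and over miR128KO after ACC. After Sham these were -0.19 (SE 0.0880) and -0.27 (SE 0.0814). The miR155KI cords overlapped with WT in both operations and lay below all miR128KO cords of the same operation that were used. The left-out miR128KO ACC 1 had 27.8 CPM of Bach1, below all miR155KI ACC cords. Cebpb, a transcription factor of inflammatory and acute phase genes, had -0.29 (SE 0.128) over WT and -0.43 (SE 0.126) over miR128KO after ACC, and -0.21 (SE 0.136) and -0.35 (SE 0.126) after Sham. It was thus below the other genotypes on average in all 4 comparisons, although single cords overlapped in all but that against miR128KO after ACC. There the left-out miR128KO ACC 1 had 24.5 CPM of Cebpb, within the range of the miR155KI ACC cords.

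The last 4 had values on both sides of 0 or within about 1 SE of it. Tab2, an adaptor that joins ubiquitin chains to the kinase TAK1, ranged from -0.08 to 0.00 over the 4 comparisons, with SEs of 0.0669 to 0.0723. Jarid2, a partner of Polycomb repressive complex 2, ranged from -0.04 to 0.10. Inpp5d, which encodes the phosphatase SHIP1 of blood cells and microglia, ranged from -0.03 to 0.09. Socs1, an inhibitor of JAK kinases downstream of interferon, ranged from -0.15 to 0.37 with SEs of 0.299 to 0.327. For Socs1, with 0.607 to 1.88 CPM at 4 h, a difference of the size seen for Tspan14 would have been about 2 SEs.

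**Figure D2:**
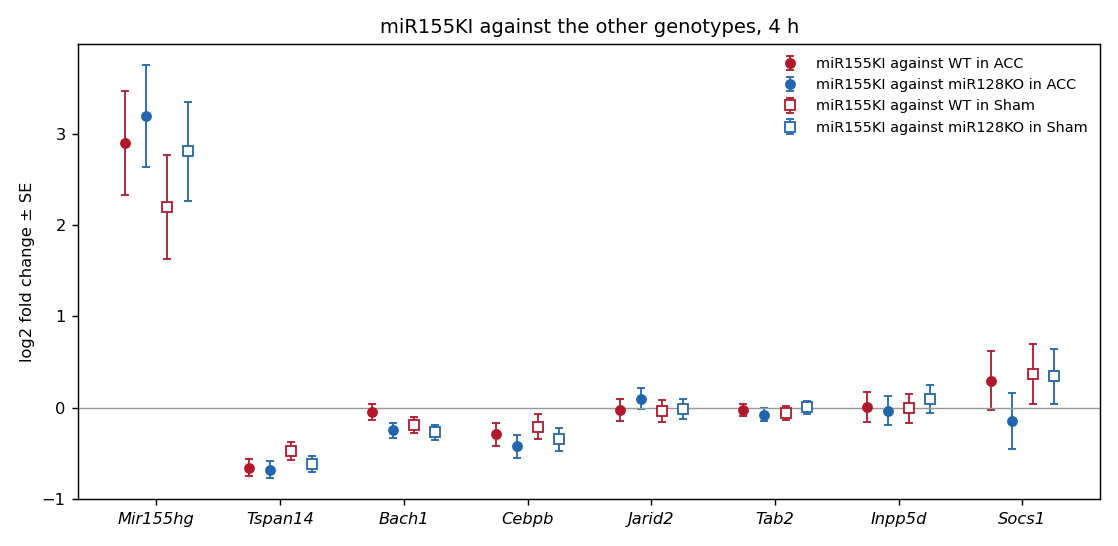
Log2 fold change of miR155KI over WT (red) and over miR128KO (blue), after ACC (filled circles) and Sham (open squares), for the 8 genes, with bars of 1 SE. Mir155hg lies between 2.20 and 3.21 and Tspan14 between -0.68 and -0.48, and the other 6 genes lie between -0.43 and 0.37; comparisons share cords, and no test was made.

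Another 38 genes reported as miR-155 targets in mouse or human cells gave a wider view, and 37 passed the filter. In the mean of ACC and Sham, none was called higher in miR155KI and 2 were called lower, S1pr1 and Zfp652, where 0.332% of all tested genes were called lower. A negative log2 fold change was found for 28 of 37 (75.7%), with a median of -0.05, against 48.6% of all tested genes and a median of 0.00. By comparison, the share was 64.9% over WT after Sham, 54.1% over WT after ACC and 70.3% over miR128KO in both operations, against 48.4% to 50.4% of all tested genes. In miR128KO over WT, where no cord carries the knock-in, 13 of the 37 were negative (35.1%, median 0.04). Both contrasts share the miR128KO and WT cords, at different weights. The WT cords are subtracted in both, whereas the miR128KO cords are subtracted from miR155KI in one and set over WT in the other. The markers of oligodendrocytes, the myelinating cells of the cord, had the same signs. None was called, and 8 of 8 were negative in miR155KI over the other genotypes (median -0.11) and over miR128KO in both operations, 6 of 8 over WT after ACC and 5 of 8 over WT after Sham. In miR128KO over WT 1 of 8 was negative (median 0.14). Their summed level was 32200 to 40590 CPM in miR155KI ACC, 41620 to 43790 CPM in miR128KO ACC and 30260 to 41190 CPM in WT ACC. In Sham cords it was 30170 to 39800 CPM in miR155KI, 34890 to 43620 CPM in miR128KO and 30740 to 38620 CPM in WT. No marker was at 0 in all libraries, and their part in the levels of the 37 genes was not tested. An 8mer match was present in 11 of the 38 genes and a match of any kind in 21.

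S1pr1, a receptor for sphingosine 1-phosphate, averaged 76.5 ± 10.3 CPM in miR155KI cords and 95.2 ± 9.66 CPM in the others (SD, n = 9 and 13), a log2 fold change of -0.34 (SE 0.0508; edgeR adjusted p = 0.000552). Zfp652, a zinc finger repressor, averaged 56.0 ± 4.42 CPM in miR155KI and 65.4 ± 6.50 CPM in the others, with -0.20 (SE 0.0447; adjusted p = 0.0360). In the mean of ACC and Sham, S1pr1 was called under all 27 alternatives, with adjusted p from 2.66e-07 to 0.00826, whereas Zfp652 lost its call in 12 of 27 (0.00303 to 0.0853). In the 4 separate comparisons S1pr1 was not called, where at most 0.194% of all tested genes were. Zfp652 was called in 1 of them, over miR128KO after Sham (-0.36, SE 0.0718; edgeR adjusted p = 0.03215). S1pr1 is also a gene of astrocytes and endothelium. Of 8 astrocyte markers, 6 were negative in miR155KI over the other genotypes (median -0.08, with 48.6% of all tested genes below 0), and 4 of 8 over WT after ACC (median 0.01). Over WT after Sham 6 of 8 were negative (median -0.06). Over miR128KO 5 of 8 were negative after ACC (median -0.07) and 7 of 8 after Sham (median -0.11). In the mean of ACC and Sham 2 were called lower, where 0.332% of all tested genes were, Gfap at -0.41 (SE 0.0865; adjusted p = 0.0387) and Aqp4 at -0.32 (SE 0.0625; adjusted p = 0.0127), and the call of Gfap was lost in 15 of 27 alternatives. The summed astrocyte markers were at 6226 to 7756 CPM in miR155KI ACC, 7610 to 8692 CPM in miR128KO ACC and 7114 to 9285 CPM in WT ACC. In Sham cords they were at 6458 to 7750 CPM in miR155KI, 7476 to 8543 CPM in miR128KO and 7139 to 8542 CPM in WT. Of 8 endothelial markers none was called, where 0.444% of all tested genes were, and all 8 had a positive log2 fold change in miR155KI, with a median of 0.27. All 8 were also positive over WT after ACC and over miR128KO in both operations, and 4 over WT after Sham. The summed endothelial markers were at 85.4 to 188.7 CPM in miR155KI ACC, 87.8 to 117.2 CPM in miR128KO ACC and 97.5 to 143.3 CPM in WT ACC. In Sham cords they were at 87.6 to 171.2 CPM in miR155KI, 72.8 to 136.1 CPM in miR128KO and 110.9 to 154.1 CPM in WT. No marker of either list was at 0 in all libraries, and their part in the level of S1pr1 was not tested. The 8mer match of Zfp652 and the 7mer match of S1pr1 are printed for comparison with those above.
Zfp652 site at chr11:95764419-95764426 (plus strand): ggttagtccagAGCATTAActatatca
S1pr1 site at chr3:115710677-115710683 (minus strand): cactccccaaaAGCATTActttaact

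Across all tested genes, those with a match were shifted little. Without the 8 genes described here, the 511 genes with an 8mer match had a median log2 fold change of -0.01 in miR155KI over the other genotypes, and 58.1% of them were below 0. The 1620 genes with a 7mer match only had a median of 0.00 with 52.2% below 0, and the 13454 with none had 0.00 with 49.7%. By comparison, the share of 8mer genes below 0 was 61.6% over WT after Sham, 59.5% over miR128KO after Sham, 53.2% over WT after ACC and 46.0% over miR128KO after ACC. Genes with no match had 49.8% over WT after Sham, 48.4% over miR128KO after Sham, 48.1% over WT after ACC and 52.9% over miR128KO after ACC, where the order was thus turned round. In miR128KO over WT, where no cord carries the knock-in, the share was 56.0% with an 8mer match and 48.0% with none. Genes with an 8mer match also had longer 3′ UTRs, with a median of 2744 bases against 988 bases for genes with none, and the part of length was not tested. Of the 511, 6 were called lower in miR155KI (1.17%) and none higher. Of those with only a 7mer match, 11 were called lower (0.679%), and of those with no match 41 (0.305%). Genes with no match thus made up 41 of the 58 called lower, and 86.3% of all tested genes with a 3′ UTR. Among the 6 with an 8mer match were Cd151, Wbp1l (-0.52, SE 0.0840), Yes1 (-0.32, SE 0.0643), Wwc1 (-0.26, SE 0.0575) and Zfp652, all named after their values were seen.

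**Figure D3:**
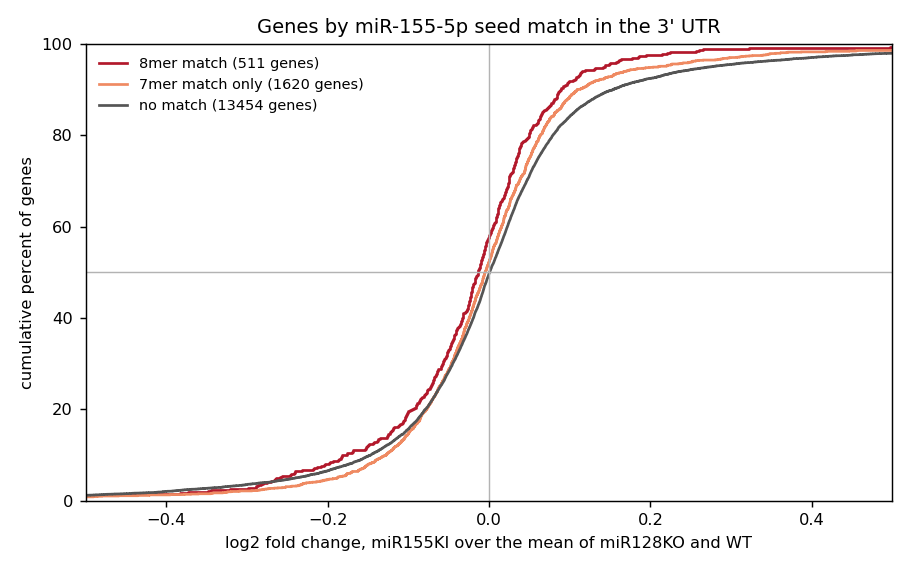
Cumulative percent of genes against the log2 fold change of miR155KI over the mean of miR128KO and WT, for 511 genes with an 8mer match, 1620 with a 7mer match only and 13454 with none. The axis ends at -0.5 and 0.5, and the 8mer curve crosses 0 at 58.1% and the curve of genes with no match at 49.7%.

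Clamping was a contrast that did not choose the genes, so it was tested. At 4 h, 3 of the 8 genes rose in ACC cords on average over the genotypes, Cebpb, Bach1 and Tab2, and none fell, where 14.8% of all tested genes were called, 8.97% higher and 5.83% lower. The 5 that did not pass were Mir155hg, Tspan14, Socs1, Inpp5d and Jarid2.

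Cebpb had 22.7, 25.8, 19.0, 26.1 and 27.6 CPM in miR155KI ACC cords, against 14.8, 19.1, 17.9 and 14.2 CPM in miR155KI Sham cords. It had 30.8, 35.0 and 31.9 CPM in miR128KO ACC cords, against 19.4, 24.3, 18.5 and 21.8 CPM in miR128KO Sham cords. WT cords had 25.2, 28.7 and 35.1 CPM after ACC, against 19.7, 21.4 and 16.1 CPM after Sham. ACC and Sham cords did not overlap in miR128KO and WT, and in miR155KI 1 ACC cord was just below 1 Sham cord. The mean log2 fold change was 0.61 (SE 0.0768; edgeR adjusted p = 2.96e-06). Within genotypes, where 4.62% of all genes were called in miR155KI, 2.73% in miR128KO and 1.73% in WT, it was 0.56 (SE 0.119; adjusted p = 0.00590) in miR155KI, 0.63 (SE 0.133; 0.00661) in miR128KO and 0.64 (SE 0.146; 0.0180) in WT. The call within WT was lost without WT ACC 3 (adjusted p = 0.154), WT Sham 3 (0.136) or WT Sham 1 (0.0618), and that within miR128KO with miR128KO ACC 1 included (0.0556). Tmem189, which overlaps Cebpb on the opposite strand, had a log2 fold change of 0.09 (SE 0.0507; adjusted p = 0.262).

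Bach1 had 30.1, 33.4, 33.7, 32.6 and 33.5 CPM in miR155KI ACC cords, against 25.5, 25.5, 25.1 and 28.4 CPM in miR155KI Sham cords. The miR128KO cords had 38.8, 37.2 and 40.4 CPM after ACC, against 30.2, 31.8, 34.1 and 30.3 CPM after Sham. The WT cords had 29.1, 35.6 and 36.7 CPM after ACC, against 28.9, 33.8 and 27.0 CPM after Sham. Among the cords used, ACC and Sham overlapped in WT alone. The miR128KO ACC 1 cord, left out for showing no change against Sham, had 27.8 CPM, below all miR128KO Sham cords. Bach1 rose by 0.27 on average (SE 0.0500; edgeR adjusted p = 0.000481) and by 0.32 in miR155KI (SE 0.0773; adjusted p = 0.0141). The call in miR155KI was lost without miR155KI Sham 1 (0.0548) or with miR128KO ACC 1 included (0.0506). The changes in miR128KO, 0.30 (SE 0.0870; adjusted p = 0.0646), and in WT, 0.18 (SE 0.0948; adjusted p = 0.449), did not pass.

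Tab2 averaged 66.6 ± 5.35 CPM in miR155KI ACC and 60.4 ± 3.27 CPM in miR155KI Sham, 70.2 ± 4.69 CPM in miR128KO ACC and 60.4 ± 2.40 CPM in miR128KO Sham, and 67.8 ± 4.51 CPM in WT ACC and 63.0 ± 1.68 CPM in WT Sham (SD, n = 3 to 5). Its mean log2 fold change of 0.15 (SE 0.0412; edgeR adjusted p = 0.0114) was the smallest of the 3 that were called, and no genotype passed alone. The call was lost with a block for the replicate number, which at 4 h does not stand for a shared mouse (0.13, edgeR adjusted p = 0.0609).

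Inpp5d and Jarid2 had negative mean changes that did not pass, -0.20 (SE 0.0937; adjusted p = 0.153) and -0.16 (SE 0.0689; adjusted p = 0.113). Inpp5d averaged 12.6 ± 2.31 CPM in ACC and 14.5 ± 1.59 CPM in Sham cords, and Jarid2 27.1 ± 3.42 CPM in ACC and 30.2 ± 2.62 CPM in Sham cords (SD, n = 11 each). Inpp5d is a microglial gene in cord, and of 12 microglial markers 4 fell in ACC cords and 1 rose, where 5.83% of all tested genes fell and 8.97% rose. P2ry12 fell by 0.79 (SE 0.1002; adjusted p = 6.42e-06) and Tmem119 by 0.81 (SE 0.160; adjusted p = 0.00199), and Fcrls rose by 0.36 (SE 0.101; adjusted p = 0.0164). The summed microglial level was 286.3 to 376.9 CPM in miR155KI ACC against 363.7 to 403.0 CPM in miR155KI Sham, and 287.8 to 363.9 CPM in WT ACC against 337.6 to 391.6 CPM in WT Sham. In miR128KO it was 332.9 to 353.3 CPM after ACC against 321.9 to 395.6 CPM after Sham. Blood leukocytes also express Inpp5d. In ACC over Sham, a negative log2 fold change was found for 10 of 10 neutrophil markers (median -0.66), 6 of 7 monocyte markers (-0.49) and 6 of 6 lymphocyte markers (-0.57), and Csf3r (-0.47, SE 0.113; adjusted p = 0.00508) and Lyz2 (-0.46, SE 0.129; adjusted p = 0.01997) fell. Within WT these signs did not all hold, with 4 of 10 neutrophil markers negative (median 0.05), 4 of 7 monocyte markers (-0.10) and 1 of 6 lymphocyte markers (0.27). The summed neutrophil level was 35.2 to 126.8 CPM in miR155KI ACC against 54.4 to 195.7 CPM in miR155KI Sham, 35.1 to 85.4 CPM in miR128KO ACC against 89.4 to 213.8 CPM in miR128KO Sham, and 28.0 to 104.8 CPM in WT ACC against 62.1 to 85.3 CPM in WT Sham. The 10 lymphocyte markers, of which 6 passed the filter, were low in sum. After ACC they had 1.78 to 4.65 CPM in miR155KI, 1.47 to 3.04 CPM in miR128KO and 1.21 to 4.33 CPM in WT. After Sham they had 2.055 to 6.32 CPM in miR155KI, 1.87 to 16.99 CPM (median 3.08) in miR128KO and 1.73 to 3.68 CPM in WT. No marker of these 4 lists was at 0 in all libraries, and their part in the level of Inpp5d was not tested.

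Mir155hg did not pass, with a mean change of 0.37 (SE 0.373; edgeR adjusted p = 0.577), and 0.73 (SE 0.396; adjusted p = 0.340) in miR155KI. Within miR155KI all 12 motor neuron markers also had a positive log2 fold change after ACC (median 0.25), and 1 was called, the choline transporter gene Slc5a7, where 4.62% of all tested genes were called. In miR128KO 5 of 12 were positive (median -0.07) and in WT 3 of 12 (median -0.05). Their summed level was 269.0 to 367.9 CPM in miR155KI ACC against 239.7 to 321.2 CPM in miR155KI Sham, and their part in the Mir155hg value was not tested. In WT the values after ACC and after Sham overlapped, at 0.03 (SE 0.737; adjusted p = 0.994). With an SE of this size, a difference in the host transcript of WT cords below several-fold was not detectable at this depth. Tspan14 had 0.11 (SE 0.0563; adjusted p = 0.204) and Socs1 0.05 (SE 0.188; adjusted p = 0.894).

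**Figure D4:**
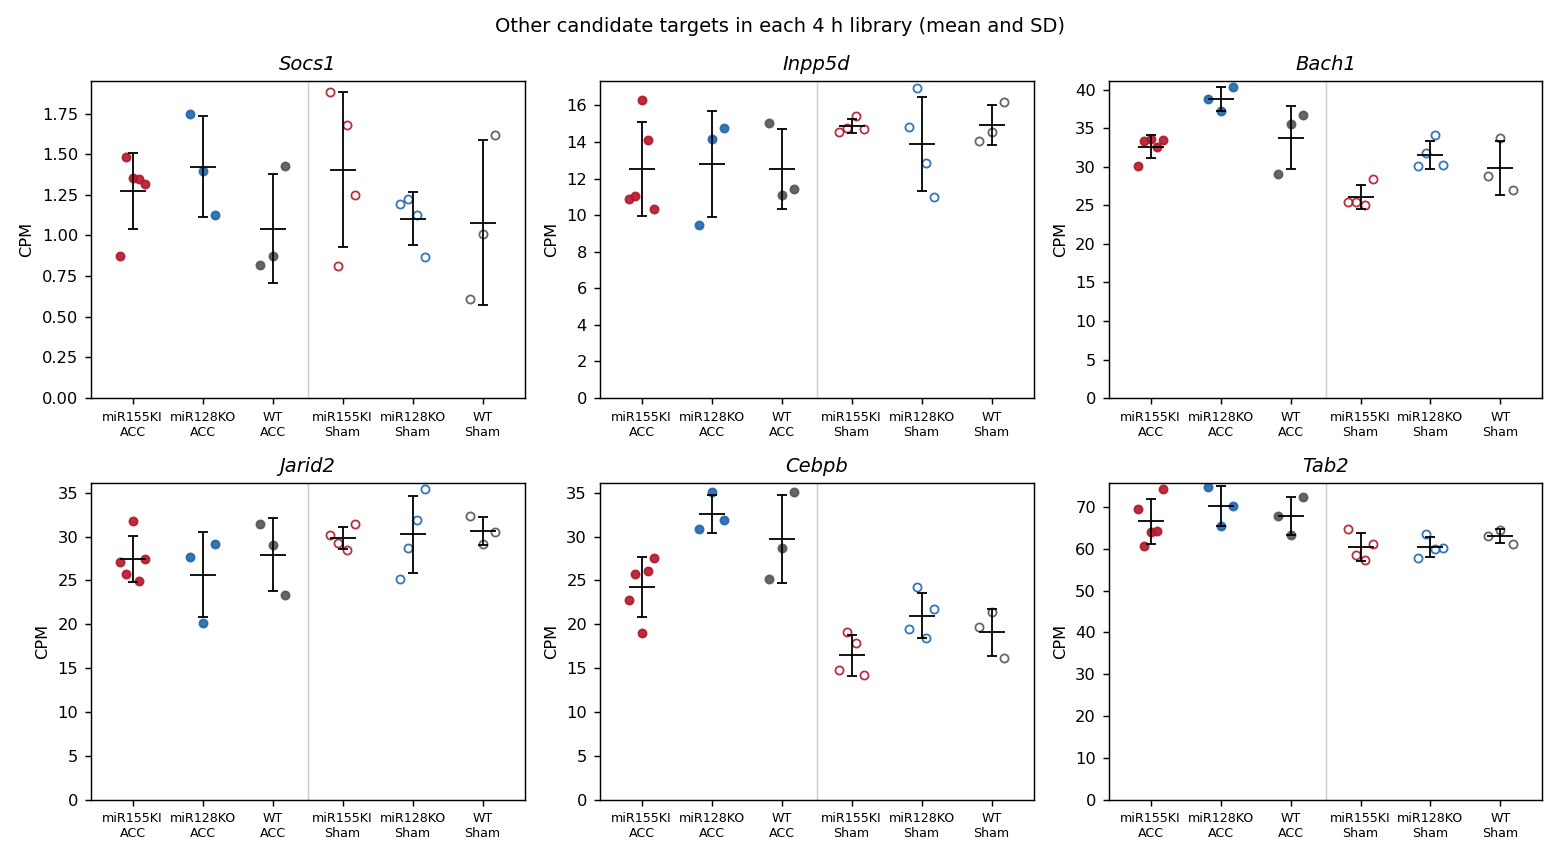
CPM of Socs1, Inpp5d, Bach1, Jarid2, Cebpb and Tab2 in each 4 h library, by genotype, with ACC groups left of Sham groups; each point is 1 mouse, and bars give the mean and SD. Cebpb shows the clearest step between operations, at 28.0 ± 4.98 CPM in ACC and 18.8 ± 3.03 CPM in Sham cords (n = 11 each), and Socs1 stays between 0.607 and 1.88 CPM.

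The response to clamping was not shown to differ among genotypes for any of the 8 genes (edgeR joint test, adjusted p of 0.992 for each). In that test no gene at all was called, 618 had an unadjusted p under 0.05, and DESeq2 called 1. The change of Cebpb in miR155KI was thus within the error of that in WT. Between miR128KO and WT, averaged over ACC and Sham, none of the 8 genes passed, where 0.0817% of all genes were called by edgeR, 1696 genes had an unadjusted p under 0.05 and DESeq2 called 119. The largest value there for a protein-coding candidate was that of Socs1, 0.23 (SE 0.244; adjusted p = 0.858), and Bach1 had 0.14 (SE 0.0645; adjusted p = 0.555). For Mir155hg, the test of miR128KO over WT and the joint test lean on miR128KO and WT cords with 1 to 6 reads each. It passed the filter only through miR155KI.

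**Figure D5:**
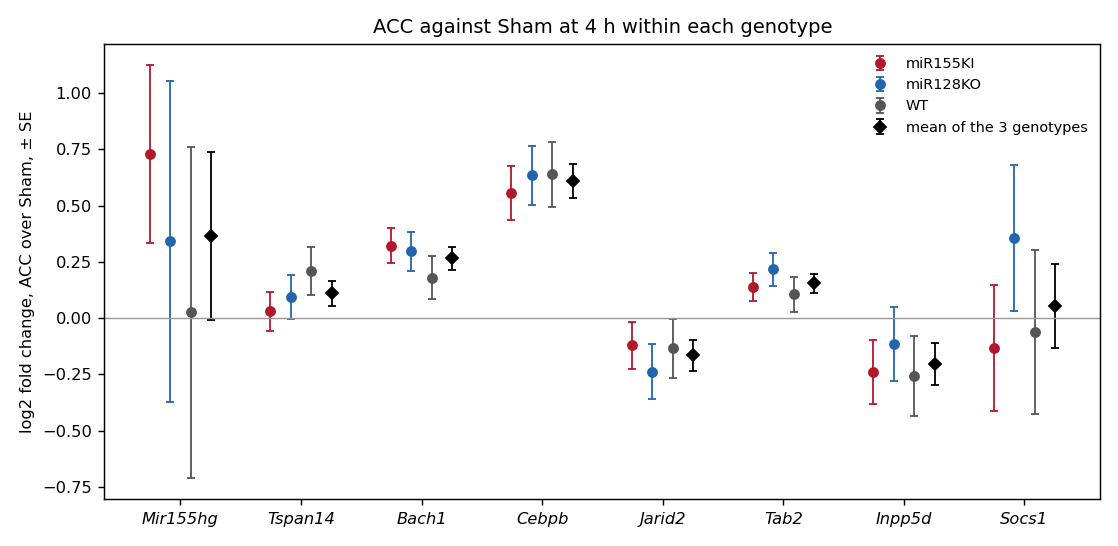
Log2 fold change of ACC over Sham at 4 h within miR155KI (red), miR128KO (blue) and WT (grey) and as the mean of the 3 genotypes (black diamonds), with bars of 1 SE. Cebpb lies between 0.56 and 0.64 in all genotypes, whereas the bars of Mir155hg and Socs1 are the widest.

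The authors' deposited table for 4 h, which pools genotypes and was turned round from Sham minus ACC, gives log2 fold changes of 0.57 for Cebpb (adjusted p = 3.50e-07), 0.25 for Bach1 (0.00183) and 0.15 for Tab2 (0.00279), and the other 5 genes do not pass an adjusted p of 0.05 there. In the authors' deposited table of clamped cords with high over low chemokine levels, turned round from low minus high, the adjusted p of all 8 genes rounds to 1.

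At 1 h, none of the 7 genes tested passed between thoracolumbar and cervical cord of clamped WT mice, where 0.438% of 17810 genes were called by edgeR, 1470 had an unadjusted p under 0.05 and DESeq2 called 137. This fit did not pair the regions of a mouse, and a block for the mouse changed no call of the 7. Cebpb came closest in size, with 23.2, 27.4 and 12.1 CPM in thoracolumbar cord, against 13.4, 13.1 and 12.1 CPM in cervical cord, a log2 fold change of 0.70 (SE 0.306; adjusted p = 0.646). In 2 mice the thoracolumbar cord stood well above the cervical cord, and in mouse 3 they were level. Without the thoracolumbar library of mouse 3, in a fit that kept the cervical library of that mouse, the log2 fold change was 0.97 and the edgeR adjusted p 0.000183. In 9 of the 10 alternatives Cebpb did not pass, with adjusted p up to 0.947. The authors' deposited table gives 0.70 for Cebpb with an adjusted p of 0.0832. Mir155hg had 0.0373, 0.220 and 0.0956 CPM in thoracolumbar cord, against 0.195, 0.197 and 0.0841 CPM in cervical cord, 1 to 5 reads per library. Tspan14 had 38.5, 47.5 and 39.2 CPM in thoracolumbar cord, against 38.3, 44.6 and 45.7 CPM in cervical cord, a range above all miR155KI cords at 4 h in a table that was normalised separately.

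The relatives and partners of the candidates were examined through lists. Between miR155KI and the other genotypes none of their members was called in the mean of ACC and Sham, for 17 genes of the SOCS family and JAK-STAT signalling, 16 inositol lipid phosphatases and PI3-kinases, 11 of the TAK1 complex, 13 of the BACH, small MAF and NRF2 group, 11 of the PRC2 complex, 6 of the C/EBP family and 13 that process microRNAs. With 0.444% of all tested genes called there, no call in lists of this size is near the background share. Median log2 fold changes of these lists ran from -0.05 for the BACH group to 0.02 for the inositol phosphatases, against 0.00 over all genes.

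After clamping, several of these partners rose, where 8.97% of all tested genes were called higher and 5.83% lower. In the C/EBP family 3 of 6 rose and none fell, among them Ddit3, the stress-induced partner CHOP, by 0.80 (SE 0.0768; adjusted p = 3.56e-08), and Cebpd by 0.77 (SE 0.108; adjusted p = 3.78e-05). In the BACH group 4 of 13 rose and none fell. Hmox1, heme oxygenase 1 and a direct target of BACH1 repression, had 27.6 ± 3.01 CPM in ACC and 9.77 ± 1.34 CPM in Sham cords (SD, n = 11 each) and rose by 1.504 (SE 0.0788; adjusted p = 5.95e-13). Maff, a small MAF partner, rose by 1.74 (SE 0.138; adjusted p = 1.32e-08). Bach1 itself rose in the same cords, as given above.

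The counts of the other lists are also to be set against 8.97% of all tested genes called higher and 5.83% lower. Around Socs1, 5 of 17 genes rose and none fell, among them Cish by 0.84 (SE 0.123; adjusted p = 2.26e-05), Jak2 by 0.32 (SE 0.0465; adjusted p = 1.80e-05) and Stat3 by 0.31 (SE 0.0377; adjusted p = 1.53e-06). In the TAK1 complex of Tab2, 3 of 11 rose and 1 fell, with Chuk at 0.27 (SE 0.0559; adjusted p = 0.00137). Among the phosphatases and PI3-kinases around Inpp5d, 1 of 16 rose and 2 fell. Pik3cg, a leukocyte PI3-kinase, fell by 0.88 (SE 0.134; adjusted p = 3.68e-05) in the mean of the genotypes. Most leukocyte markers above were negative in that mean, but within WT their signs did not all hold. Their part in the value of Pik3cg was not tested. In the PRC2 complex of Jarid2, 2 of 11 rose and 2 fell. Of the 6 tested TspanC8 and ADAM genes, Adam10 fell by 0.13 (SE 0.0416; adjusted p = 0.0326), a call lost in 8 of 28 alternatives. In microRNA processing 1 of 13 rose and 1 fell, Ago2 and Dgcr8, and their calls were lost in 20 and 14 of 28 alternatives. Of the 37 other reported targets 8 rose and 8 fell, with the immediate early gene Fos rising by 3.68 (SE 0.181; adjusted p = 3.67e-10) and Trp53inp1 falling by 0.43 (SE 0.0762; adjusted p = 0.000295). The median over those 37 was -0.02, against -0.01 over all genes.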

How the data were processed

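Gene counts are whole numbers as deposited by the authors. The tools, per the submitters' processing notes, were fastp for cleaning, HISAT2 2.0.5 for alignment to GRCm38/mm10 and featureCounts 1.5.0-p3 for counting. Neither the strand setting nor the release of the annotation is given in the sources used here. Libraries are poly-A selected and directional, per the labels' protocols. Log2 fold changes, their SEs and p-values in the authors' deposited tables are DESeq2 output as the submitters' notes give it, and gene positions and lengths are the deposited annotation, per the file headers.

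From the counts, CPM used TMM library sizes. Low genes were removed with filterByExpr (minimum count 10), and the rest were tested with quasi-likelihood F tests in edgeR 4.0.16 under R 4.3.3, with 1 mean per group (22 libraries at 4 h, 16 residual degrees of freedom; 6 at 1 h, 4 degrees of freedom) and Benjamini-Hochberg adjustment over all genes tested. SE is the absolute log2 fold change divided by the square root of F. A prior count of 2 was used for log2 CPM in correlations. The fit was tested on simulated data. Alternatives were DESeq2 1.42.0, no filter, DESeq2's size factors, no genotype term, leaving out each library, including miR128KO ACC 1, and a replicate block. Each 4 h library is a separate mouse. The 1 h libraries pair by mouse per the labels, although same-numbered deviations from the group means correlated at 0.007 to 0.028.

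The genes, lists and tests were chosen with earlier results of these data known. Beside the 8 genes and Gt(ROSA)26Sor, genes are named as the up to 3 smallest adjusted p per list and direction past 0.05, marker genes by level or call, and the 5 most like Mir155hg and Tspan14. Exceptions are marked. Seed matches came from GENCODE M21 transcripts, and intervals between groups cover the spread between mice.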

Additional observations from a re-analysis of the deposited data

Results flagged for a closer look

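Among the 27 groups of 4 or more cords examined for the 8 genes and Gt(ROSA)26Sor, 4 held a value far from the rest of its group, and chance flags about 1 group in 20. In miR155KI ACC cord 1, Mir155hg was at 0.687 CPM where the other 4 cords had 1.32 to 1.57 CPM, Socs1 was at 0.871 CPM where the others had 1.32 to 1.48 CPM, and Bach1 was at 30.1 CPM where the others had 32.6 to 33.7 CPM. In miR155KI Sham cord 4, Bach1 was at 28.4 CPM where the other 3 had 25.1 to 25.5 CPM.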

How the results depend on the processing

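Cebpb and Bach1 rose in ACC cords under all 28 alternatives (adjusted p 3.71e-12 to 0.000133 and 7.72e-06 to 0.0100). Tab2 did so under 27, the exception being the replicate block. Log2 fold changes of Mir155hg in miR155KI over the mean of the others stayed between 2.56 and 2.93, and those of Tspan14 between -0.65 and -0.58. The cause of the differences below was not tested.

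Counts of called genes depended on the tool. DESeq2 called 872 for ACC in miR128KO, 1 for a difference among genotypes, 18 and 11 for miR155KI over WT after ACC and Sham, 141 and 106 over miR128KO after ACC and Sham, 235 over both, 119 for miR128KO over WT and 137 at 1 h. With no filter the counts were 69 for miR155KI over miR128KO after ACC, 43 for miR128KO over WT and 272 at 1 h. With miR128KO ACC 1 included they were 151 for ACC in miR128KO, 173 in WT, 1 for miR155KI over WT after Sham, 73 over miR128KO after ACC and 28 for miR128KO over WT.

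At 4 h, same-numbered cords share only a number: their deviations from the group means correlated at -0.23 to 0.27 (median -0.008), against -0.342 to 0.377 for other pairs. The replicate block left 2240 calls for ACC against Sham, 11 and 17 for miR155KI over miR128KO after ACC and Sham, and gave Tab2 0.13 after ACC (adjusted p = 0.0609) and Tspan14 -0.017 for ACC in miR155KI. At 1 h, where pairing is by mouse, the block called 79 genes and changed no call of the 7 genes tested.

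Leaving out each library in turn gave 566 to 969 calls for ACC in miR155KI, 289 to 636 in miR128KO and 170 to 355 in WT, and 0 to 2 for a difference among genotypes. It gave 0 to 6 for miR155KI over WT after ACC, 0 to 3 after Sham, 8 to 55 and 15 to 41 over miR128KO after ACC and Sham, 48 to 119 over both, 11 to 36 for miR128KO over WT and 34 to 142 at 1 h. The fewest calls over both came without miR155KI Sham 4, the most without miR155KI ACC 4, and 142 at 1 h came without the thoracolumbar library of mouse 3.

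Some log2 fold changes near 0 turned sign. Inpp5d in miR128KO over WT was 0.014 with miR128KO ACC 1 included and -0.083 to 0.057 without single libraries. Tab2 there was 0.0027 with no filter and -0.028 to 0.023, and Jarid2 -0.13 to 0.0017. For ACC, ranges without single libraries were -0.39 to 0.62 for Mir155hg in WT, -0.046 to 0.19 for Socs1 over all genotypes, -0.33 to 0.036 in miR155KI and -0.36 to 0.37 in WT, -0.23 to 0.051 for Inpp5d in miR128KO and -0.050 to 0.084 for Tspan14 in miR155KI. At 1 h they were -0.11 to 0.0084 for Bach1 and -0.14 to 0.012 for Tspan14. Depth limits Mir155hg and Socs1 most. The mature microRNA, proteins and single cell types were not measured.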
